A study of Mus musculus with 9 samples.

Results

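The enzymes that write and erase marks on histones and DNA, and the motors that slide nucleosomes, were followed in the kidney of wild-type mice at 2 ages. A gene belonged to the set when its symbol began with Kdm, Kmt, Hdac, Setd, Ehmt, Dnmt, Ezh or Smarc, or was one of Sirt1 to Sirt7 or Tet1 to Tet3, with Kdm5d left out. The rule took 68 of the 13081 genes in the table: 15 Kdm, 12 Smarc, 10 Hdac, 8 Kmt, 7 Setd, 7 sirtuin, 3 Tet, 2 Dnmt, 2 Ehmt and 2 Ezh genes. Hdac9, Smarca1 and Dnmt3b are not analysed here.

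The young group, aged 3 months, has 4 kidney libraries, and the old group, aged 16 months, has 5. All were labelled wild type and no treatment other than age was given, and the study's methods name C57BL/6 mice. The table held 5093029 to 6355095 reads per young library and 4486406 to 5794960 per old library, counted from transcript 3′ ends. Young and old libraries carry different title prefixes, so preparation or sequencing that follows the prefix and age cannot be told apart. Tubule markers were abundant in both groups, with a summed level over 5 proximal tubule genes of 30316 to 31558 normalised counts in young and 26458 to 33900.0 in old libraries. Most of that sum is Slc34a1. Of the 5 genes 3 fell, among them Slc22a6 (2.39-fold), and Lrp2 rose 1.93-fold, a call lost once a transcript length trend was removed (adjusted p = 0.0509). Mitochondrial ribosomal RNA took 2.98% to 4.46% of the reads in young and 21.8% to 25.4% in old libraries, and counts of members rescaled without mitochondrial genes are given further on.

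Nuclear DNA is wound on histones, and enzymes add or remove acetyl and methyl groups on the histone tails to open or close the packing. Histone methyltransferases (Kmt, Setd, Ehmt, Ezh) write methyl marks and demethylases (Kdm) erase them. Histone deacetylases (Hdac) and the NAD+-dependent sirtuins take acetyl groups off, Dnmt enzymes methylate DNA, Tet enzymes oxidise the methyl group towards its removal, and most Smarc genes encode subunits of the SWI/SNF remodelling complex. In the kidney these enzymes act in tubule, vessel and stromal cells alike, and several sirtuins work in the mitochondria that fill the proximal tubule.

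More of these genes were higher than lower in the old kidney, while 1 sirtuin was called higher and 4 lower. All 68 genes were tested, 36 were higher in old, 9 were lower and 23 did not pass (limma, Benjamini-Hochberg adjusted p under 0.05 over all 12667 genes tested, here "called"). Much of the transcriptome differed between the 2 groups of libraries: 59.7% of all genes tested were called, 29.2% higher and 30.5% lower. Of the 68 members, 66.2% were called, a share near that of all genes, while 52.9% were higher and 13.2% lower. The median log2 fold change (old minus young) was 0.40 over the members and -0.0027 over all genes tested. Values of the old and young libraries did not overlap for 40 of the 68 members, and for 49.0% of all genes. At least 2-fold changes were called for 13 members upwards and 2 downwards, against 9.93% and 13.9% of all genes. Together the members took 0.212% to 0.226% of the reads in young and 0.265% to 0.296% in old libraries. In whole tissue, fewer cells of a type and less RNA per cell cannot be told apart.

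**Figure D1:**
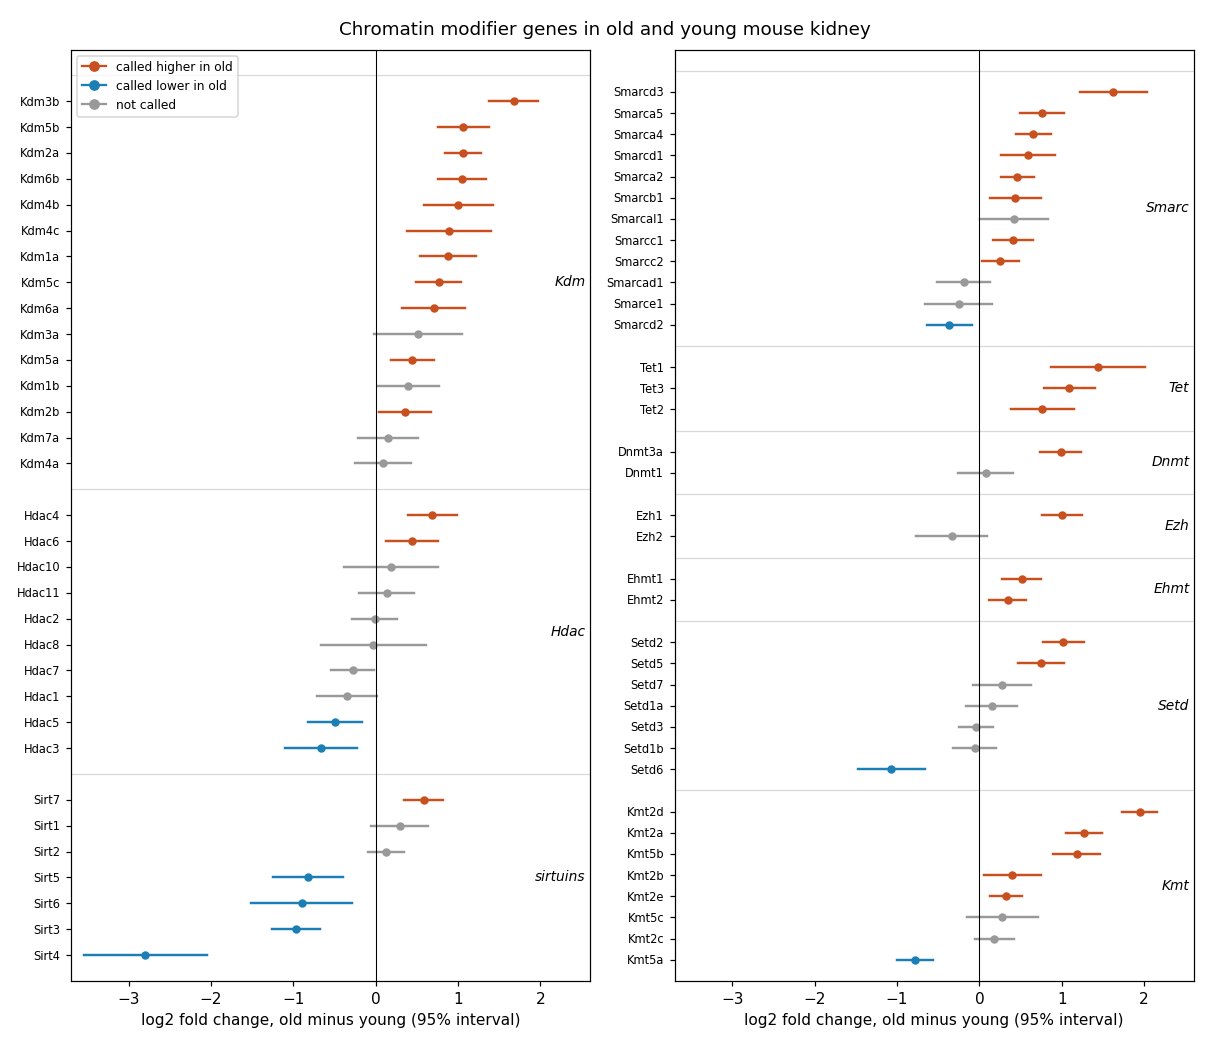
Log2 fold change (old minus young, x axis) of each of the 68 genes by class, with dots for the limma estimate and lines for its 95% interval; orange is called higher, blue called lower and grey not called. Sirt4 lies farthest to the left at -2.80 and Kmt2d farthest to the right at 1.95, and no Kdm or Tet gene lies below 0, a sign that turned for Kdm4a, Kdm5a and Kdm7a with a length trend removed.

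Sirtuins remove acetyl and other acyl groups from proteins and need NAD+ to do so. Sirt3, Sirt4 and Sirt5 sit in mitochondria, Sirt1, Sirt6 and Sirt7 in the nucleus and Sirt2 mainly in the cytoplasm. The 3 mitochondrial genes fell with Sirt6, Sirt7 rose, and Sirt1 and Sirt2 did not pass the test. The median log2 fold change of the 7 was -0.82. The count of 1 higher (14.3%) and 4 lower (57.1%), which includes Sirt4, stands beside 29.2% and 30.5% of all genes. This sirtuin count became 2 and 3 with a transcript length trend removed and 3 and 4 with mitochondrial genes left out.

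The RefSeq promoters (GRCm38.p6, 250 bases before to 50 after the annotated start, 5′ to 3′ on the gene's strand) of the 3 mitochondrial sirtuins are shown because all 3 were lower in old libraries. Capitals mark matches on either strand to 6 motifs: GGGCGG (the GC box), CCAAT (the CCAAT box), CACGTG (the E-box), CCGGAAGT (the ETS motif), TGACGTCA (the cAMP response element) and CGCATGCG (the NRF1 core). Sirt3 has 2 annotated starts, at chr7:140882260-140882559 and chr7:140881820-140882119, both on the minus strand. Sirt4 lies at chr5:115484248-115484547 on the minus strand and Sirt5 at chr13:43365285-43365584 on the plus strand.
Sirt3 first promoter: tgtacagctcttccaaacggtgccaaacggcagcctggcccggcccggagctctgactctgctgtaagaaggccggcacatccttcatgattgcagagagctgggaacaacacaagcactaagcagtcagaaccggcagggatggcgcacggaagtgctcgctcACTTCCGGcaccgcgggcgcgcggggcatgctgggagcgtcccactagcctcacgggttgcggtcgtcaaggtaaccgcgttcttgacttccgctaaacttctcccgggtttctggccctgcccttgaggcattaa
Sirt3 second promoter: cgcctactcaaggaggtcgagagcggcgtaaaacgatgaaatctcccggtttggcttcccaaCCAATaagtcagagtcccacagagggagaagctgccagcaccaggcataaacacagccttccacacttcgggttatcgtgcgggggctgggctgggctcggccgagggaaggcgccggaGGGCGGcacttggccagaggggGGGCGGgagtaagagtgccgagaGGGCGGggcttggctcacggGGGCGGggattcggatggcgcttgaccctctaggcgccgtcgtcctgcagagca
Sirt4 promoter: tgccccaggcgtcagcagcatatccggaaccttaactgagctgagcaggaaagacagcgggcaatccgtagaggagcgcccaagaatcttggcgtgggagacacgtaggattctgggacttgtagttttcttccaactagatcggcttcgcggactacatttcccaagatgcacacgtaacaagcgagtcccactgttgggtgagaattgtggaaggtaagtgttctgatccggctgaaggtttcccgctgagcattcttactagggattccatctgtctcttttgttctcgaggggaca
Sirt5 promoter: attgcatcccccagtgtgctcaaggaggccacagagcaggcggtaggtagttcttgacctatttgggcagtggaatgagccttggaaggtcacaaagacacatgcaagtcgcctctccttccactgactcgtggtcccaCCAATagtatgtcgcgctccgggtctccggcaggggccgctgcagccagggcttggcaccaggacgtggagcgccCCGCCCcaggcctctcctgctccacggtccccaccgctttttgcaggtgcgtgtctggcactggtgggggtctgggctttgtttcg
The second Sirt3 promoter held 4 GC boxes and 1 CCAAT and the first 1 ETS match, Sirt5 held 1 GC box and 1 CCAAT, and Sirt4 held none of the 6. These matches are letters in a window and were not tested as binding sites.

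Sirt4, a mitochondrial lipoamidase and ADP-ribosyltransferase that restrains glutamine use, was low in old kidneys. It was at 26.2, 36.0, 35.3 and 33.5 normalised counts in the young libraries and at 4.71, 3.28, 3.04, 7.46 and 2.12 in the old. Every old library lay far below every young one, on 2 to 8 reads each against 32 to 37. The log2 fold change was -2.80 ± 0.36 (SE), 6.94-fold lower. No old library reached 10 normalised counts, so Sirt4 entered the test only through the young libraries, where it was high. It had to differ, and its value is a description with no p, although it is counted among the 9 called lower. On this scale the change of so low a gene is understated.

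Sirt3, the main deacetylase of the mitochondrial matrix, was at 297, 338, 296 and 263 normalised counts in young libraries. In old libraries it was at 179, 173, 170.4, 113 and 136, again with no overlap. It fell by 0.97 ± 0.14 (SE) on the log2 scale, 1.95-fold (adjusted p = 9.29e-06). Genes on the opposite strand, Psmd13 and Ric8a, overlap Sirt3 in the annotation, and the reads were counted by strand.

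Sirt5, which removes succinyl, malonyl and glutaryl groups, was at 77.0, 72.9, 80.4 and 66.1 in young and at 34.2, 50.3, 58.8, 28.9 and 41.4 normalised counts in old libraries. The groups did not overlap, and the fold change was 1.77-fold lower (adjusted p = 0.00187). Its annotated 3′ end shares 90.5% of its 50-base sequences with other genes, so the value of Sirt5 is uncertain. Sirt6, a nuclear deacetylase of telomeric chromatin and DNA repair, was at 32.8, 19.4, 24.5 and 38.0 in young and at 8.25, 15.3, 15.2, 16.8 and 19.1 in old libraries. The highest old library lay just under the lowest young one, and Sirt6 was 1.87-fold lower (adjusted p = 0.0132). The call was lost without young replicate 4 (adjusted p = 0.0631) and with a transcript length trend removed (adjusted p = 0.0605).

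Sirt7, a nucleolar deacetylase tied to ribosomal RNA genes, went the other way. It was at 221, 236, 237 and 243 normalised counts in young and at 414, 338, 298, 332 and 386 in old libraries, 1.5-fold higher (adjusted p = 0.000181). The lowest old library exceeded the highest young one. Its annotated span overlaps Mafg on the same strand, so reads in the overlap could be lost to either gene.

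Sirt1, a deacetylase of histones and transcription factors, was at 46.7 to 56.4 in young and 57.3 to 74.4 normalised counts in old libraries. The groups did not overlap, yet the log2 fold change of 0.29 (95% interval -0.05 to 0.63) did not pass (adjusted p = 0.135). When the table was rescaled without its mitochondrial genes, Sirt1 passed at 0.43 (adjusted p = 0.0306). Sirt2 overlapped between the ages, at 327 to 406 against 348 to 437, with a log2 fold change of 0.13 (95% interval -0.09 to 0.34, adjusted p = 0.305). Sirt2 passed without mitochondrial genes at 0.27 (adjusted p = 0.0354) and with the length trend removed at 0.32 (adjusted p = 0.0106). The log2 ratio of Sirt1 to Sirt3 within a library rose by 1.26, from -2.51 ± 0.13 (SD, n = 4) to -1.25 ± 0.36 (SD, n = 5). No library of one age overlapped the other in that ratio (exact two-sided permutation test, adjusted p = 0.0317 over 12 pairs, from the smallest p that 126 splits allow, 0.00794).

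**Figure D2:**
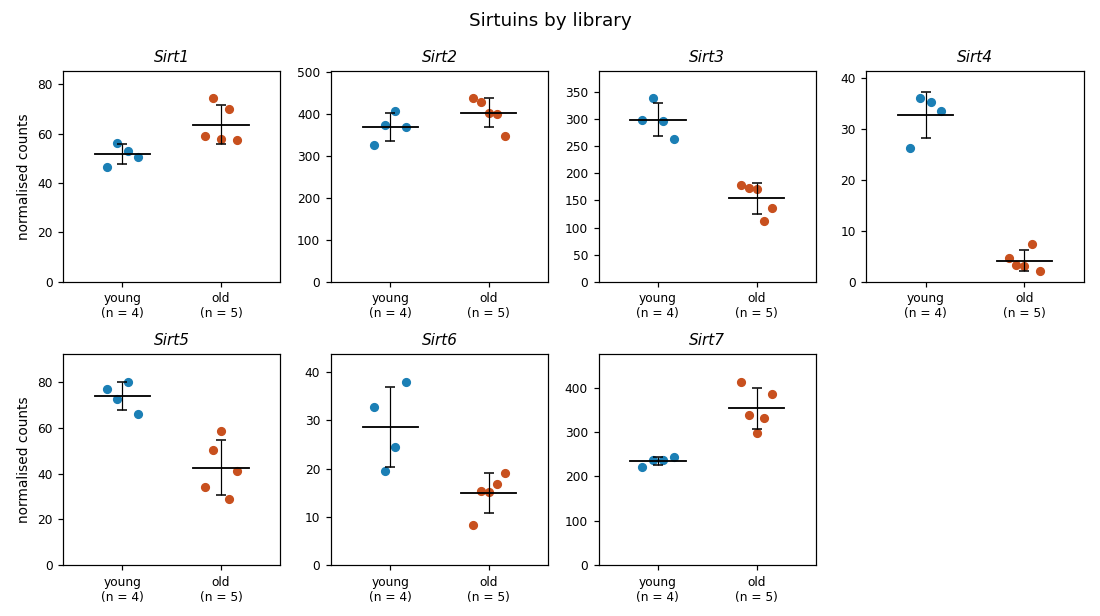
Normalised counts (y axis, from 0) of each sirtuin in the 4 young (blue) and 5 old (orange) libraries, with long bars for the mean and error bars for the SD. Sirt3, Sirt4, Sirt5 and Sirt6 are lower in every old library than in any young one, Sirt7 is higher, and Sirt2 overlaps.

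Among the Kmt, Setd, Ehmt and Ezh genes the H3K4 writers Kmt2d and Kmt2a had the largest log2 fold changes as deposited. With a transcript length trend removed Kmt2d was still the largest at 1.12, but Kmt2a stood at 0.51, below Ezh1 (0.92), Kmt5b (0.89) and Setd2 (0.58). Of the 8 Kmt genes 5 rose (62.5%) and 1 fell (12.5%), beside 29.2% and 30.5% of all genes, and the median log2 fold change was 0.36. With the length trend removed 3 of the 8 rose and 2 fell, and their median was 0.17. Kmt2d, which marks enhancers, was at 126, 131, 125 and 142 normalised counts in young libraries. In old libraries it was at 513, 463, 495, 522 and 552. It was 3.86-fold higher, a log2 fold change of 1.95 ± 0.10 (SE, adjusted p = 1.93e-11). This was the largest rise of any member as deposited, but lay below Smarcd3 (1.88) and Kdm3b (1.37) with the length trend removed.

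Kmt2a, the founding member of the family, was at 468, 421, 415 and 394 in young and at 965, 869.6, 989.8, 1150.2 and 1168 normalised counts in old libraries. It was 2.41-fold higher without overlap (adjusted p = 7.53e-09). Kmt2c, the close relative of Kmt2d at enhancers, did not follow it. Its young values of 289 to 322 lay within the old range of 286 to 431, with a log2 fold change of 0.18 (95% interval -0.06 to 0.42, adjusted p = 0.184). The log2 ratio of Kmt2c to Kmt2d fell by 1.77 from 1.21 ± 0.14 (SD, n = 4) to -0.56 ± 0.19 (SD, n = 5), with no overlap (exact permutation test, adjusted p = 0.0317). Size factors cancel in this ratio, while differences in preparation that follow age do not. The annotated untranslated 3′ end is 60 bases for Kmt2c and 2831 for Kmt2d. Whether reads past the annotated end of Kmt2c were missed was not tested.

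Of the other Kmt2 and Setd1 genes, Kmt2e rose by 0.32 and Kmt2b by 0.40 on the log2 scale, while Setd1a (0.15, 95% interval -0.16 to 0.46) and Setd1b (-0.06, 95% interval -0.32 to 0.20) did not pass. Kmt2b lost its call without young replicate 1, 3 or 4 or old replicate 2, 4 or 5 (adjusted p = 0.0525 to 0.173). With the length trend removed neither Kmt2e nor Kmt2b was called (adjusted p = 0.606 and 0.803). The enzymes of H4K20 split. Kmt5b, which adds the second and further methyl groups there, was at 66.7 to 70.4 in young and 133 to 184 normalised counts in old libraries, 2.27-fold higher (adjusted p = 5.53e-07). Kmt5a, which adds the first, was at 899, 969, 1024 and 813 in young and at 457, 551, 512, 567 and 603 in old libraries, 1.72-fold lower (adjusted p = 2.87e-06). Both were free of overlap between the ages. Kmt5c (0.28, 95% interval -0.16 to 0.72) did not pass.

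Setd2, the writer of H3K36 trimethylation, was at 122 to 134 in young and 224 to 309 normalised counts in old libraries, 2.03-fold higher (adjusted p = 5.39e-07). Setd5 was 1.68-fold higher (adjusted p = 7.6e-05). Setd6, which methylates the NF-kappaB subunit RelA, fell: 119.6, 124, 128 and 91.4 in young against 76.6, 45.9, 37.5, 53.2 and 66.8 in old libraries. It was 2.10-fold lower and did not overlap (adjusted p = 0.000118). Setd3, an actin histidine methyltransferase, and Setd7 did not pass, with log2 fold changes of -0.04 and 0.27. The H3K9 partners Ehmt1 and Ehmt2 both rose, by 0.51 and 0.34 on the log2 scale (adjusted p = 0.000734 and 0.0119). Ehmt1 lost its call with the length trend removed (0.24, adjusted p = 0.0692).

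The catalytic subunits of Polycomb repressive complex 2, the H3K27 methyltransferase, moved apart. Ezh1, the form of resting cells, was at 194, 204, 188 and 149 in young and at 358, 384, 414, 348 and 337 normalised counts in old libraries. It was 2.0-fold higher without overlap (adjusted p = 5.6e-07). Ezh2, the form of dividing cells, was at 33.6, 38.9, 34.3 and 40.7 in young and at 34.2, 27.3, 32.5, 23.3 and 28.6 in old libraries, with a log2 fold change of -0.33 (95% interval -0.77 to 0.10, adjusted p = 0.17). The log2 ratio of Ezh1 to Ezh2 rose by 1.34, from 2.28 ± 0.29 (SD, n = 4) to 3.62 ± 0.20 (SD, n = 5), with no overlap (exact permutation test, adjusted p = 0.0317).

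Genes of dividing cells were low and partly lower in old kidneys. Pcna (-0.70) and Mcm2 (-0.78) fell on the log2 scale, Top2a (0.72, adjusted p = 0.142) and Mcm5 (0.21, adjusted p = 0.645) did not pass, and Mki67 was below the filter. The summed level of these 5 genes was 156 to 179 normalised counts in young and 109 to 189 in old libraries, and its part in the Ezh1 to Ezh2 ratio was not tested.

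**Figure D3:**
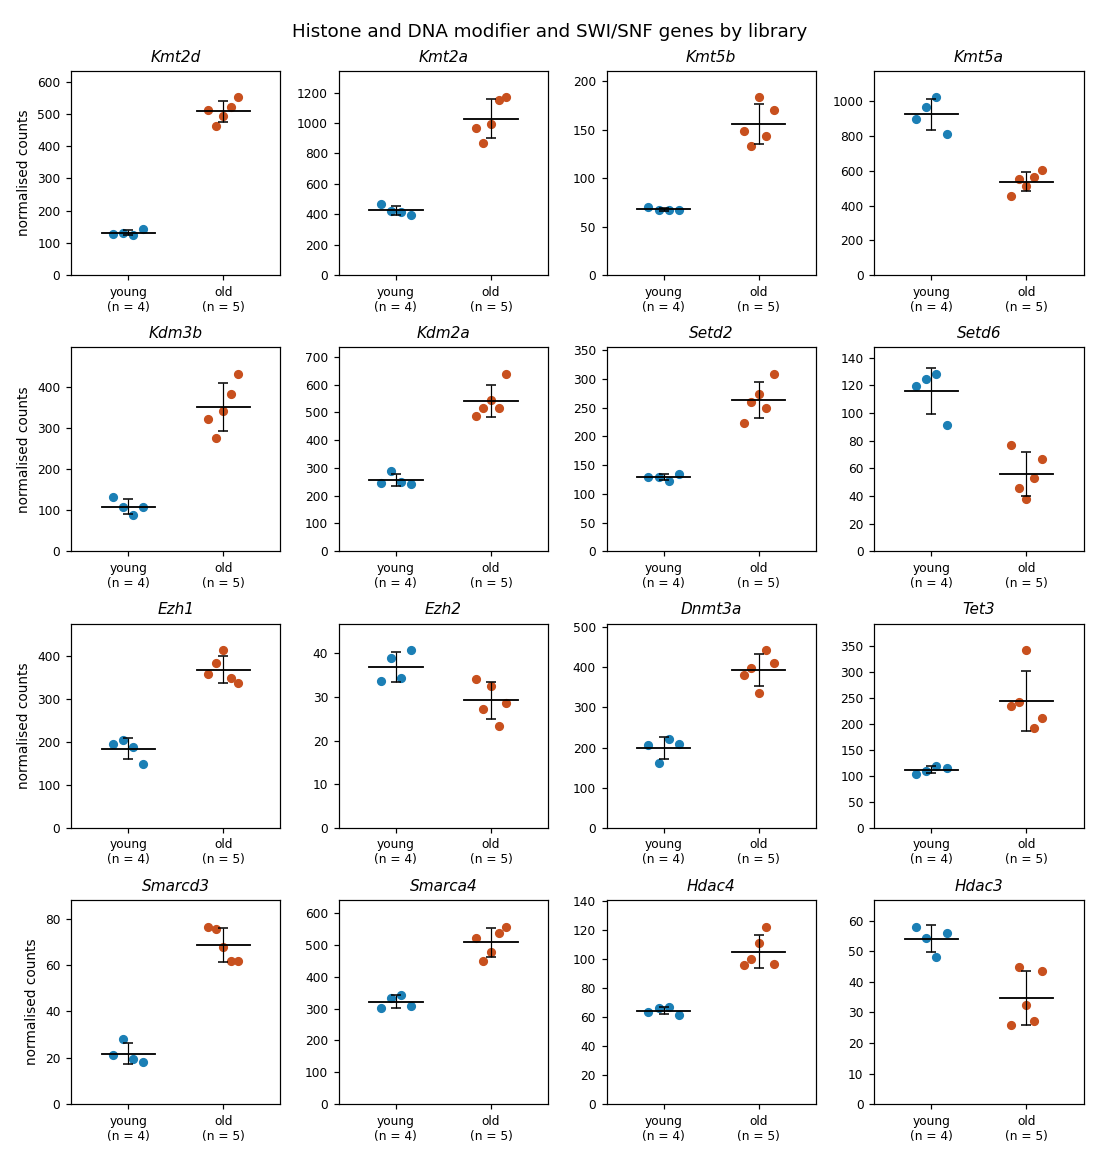
Normalised counts (y axes, from 0) of 16 members in the 4 young (blue) and 5 old (orange) libraries, with long bars for the mean and error bars for the SD. Kmt2d, Kmt2a, Kdm3b and Smarcd3 are higher in every old library, Kmt5a, Setd6 and Hdac3 are lower, and Ezh2 overlaps.

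The histone demethylases rose or did not pass, and no Kdm log2 fold change was below 0, although those of Kdm4a, Kdm5a and Kdm7a were with the length trend removed. Of the 15 Kdm genes 11 were higher (73.3%) and 0 lower by limma, beside 29.2% and 30.5% of all genes. Also 0 were lower by edgeR, by DESeq2 and at an unadjusted p under 0.05. Old and young libraries did not overlap for 11 of the 15, and for 49.0% of all genes. The median log2 fold change of the 15 was 0.77, and 0.45 with the length trend removed. Kdm3b, an H3K9 demethylase, was at 133, 107, 87.3 and 109 in young and at 322, 277, 342, 383 and 432 normalised counts in old libraries. It was 3.20-fold higher (log2 fold change 1.68 ± 0.14 SE, adjusted p = 1.21e-08).

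Kdm5b, which erases H3K4 methylation, was at 75.3, 69.0, 69.6 and 90.5 in young and at 151, 130.2, 154, 172 and 198 in old libraries, 2.09-fold higher (adjusted p = 4.9e-06). Kdm2a, an H3K36 demethylase, was at 242 to 289.6 in young and 487 to 639 in old libraries, also 2.09-fold higher (adjusted p = 8.84e-08). The 2 H3K27 demethylases rose together: Kdm6b from 67.0 to 104 in young to 159.5 to 180.5 in old (adjusted p = 3e-06), and Kdm6a from 51.0 to 63.2 to between 74.0 and 130.5 (adjusted p = 0.00249). None of these 4 genes overlapped between the ages.

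The other called Kdm genes were Kdm4b (1.0), Kdm4c (0.89), Kdm1a (0.88), Kdm5c (0.77), Kdm5a (0.44) and Kdm2b (0.36), as log2 fold changes. Kdm3a (0.51), Kdm1b (0.39), Kdm7a (0.15) and Kdm4a (0.09) did not pass (adjusted p = 0.0898, 0.0621, 0.466 and 0.644), although Kdm3a and Kdm1b did without mitochondrial genes. Kdm3a also passed without old replicate 2. Kdm2b lost its call without young replicate 1, 3 or 4 or old replicate 1, 2, 4 or 5 (adjusted p = 0.0511 to 0.204). With the length trend removed 9 Kdm genes were higher, and Kdm2b and Kdm5a were not called (adjusted p = 0.365 and 0.354). Kdm5a moved less than Kdm5b: their log2 ratio fell by 0.62, from 1.04 ± 0.29 (SD, n = 4) to 0.42 ± 0.22 (SD, n = 5), although single libraries overlapped (exact permutation test, adjusted p = 0.0476). The ratio of Kdm6a to Kdm6b moved by -0.34 and did not pass (exact permutation test, adjusted p = 0.286). Of the X-linked members, Kdm5c and Kdm6a rose with Hdac6, while Hdac8 did not pass. The Y-linked Ddx3y was read in all 9 libraries, at 125 to 179 normalised counts in young and 179 to 267 in old, and Xist is not analysed here.

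The histone deacetylases went both ways. Of the 10 Hdac genes 2 rose (20%), 2 fell (20%) and 6 did not pass, beside 29.2% higher and 30.5% lower of all genes. The median log2 fold change of the 10 was -0.02. The class I enzymes (Hdac1, Hdac2, Hdac3 and Hdac8), mainly nuclear, held 0 rises and 1 fall among 4 by limma, and 0 rises by edgeR, by DESeq2 and at an unadjusted p under 0.05. Hdac3, the partner of the nuclear receptor corepressors, was at 58.1, 54.4, 48.0 and 56.1 in young and at 25.9, 44.8, 32.5, 27.1 and 43.5 normalised counts in old libraries. It was 1.58-fold lower without overlap (adjusted p = 0.0107), and lost its call with the length trend removed (adjusted p = 0.0711).

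Hdac1 varied widely among old libraries, at 140.3, 212, 206, 127 and 109 against 185 to 219 in young, and did not pass (log2 fold change -0.35, 95% interval -0.71 to 0.01, adjusted p = 0.088). It was called lower without old replicate 2 or without old replicate 3. Hdac2 lay at 106 to 126 in young and 105 to 135 in old libraries, with a log2 fold change of -0.01 (95% interval -0.28 to 0.26). Hdac8 was within -0.67 to 0.61 (95% interval). The class IIa enzymes, which shuttle between nucleus and cytoplasm, split. Hdac4 was at 61.6 to 66.7 in young and 95.5 to 122 in old libraries, 1.61-fold higher (adjusted p = 0.000359), a call lost with the length trend removed (0.26, adjusted p = 0.118). Hdac5 was at 112 to 144 in young and 69.5 to 117 in old libraries, 1.40-fold lower with overlap (adjusted p = 0.0111). Hdac7 had a log2 fold change of -0.28 (adjusted p = 0.0618). It was called lower without old replicate 4, with table totals and with the length trend removed. Hdac6, the tubulin deacetylase, was 1.36-fold higher with overlap (adjusted p = 0.0179). Hdac10 (0.18) and Hdac11 (0.14) did not pass. The Hdac5 call was lost with mitochondrial genes left out (adjusted p = 0.0673), and that of Hdac6 without young replicate 2 or 3 or old replicate 5 (adjusted p = 0.0510 to 0.0698).

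Both arms of DNA methylation turnover held rises. Dnmt3a, which sets new methylation, was at 206, 160.3, 222 and 208 in young and at 381, 398, 337, 443 and 411 normalised counts in old libraries. It was 1.98-fold higher without overlap (adjusted p = 9.29e-07). Dnmt1, which copies methylation after replication, lay at 57.3 to 73.5 in young and 60.2 to 85.2 in old libraries, with a log2 fold change of 0.07 (95% interval -0.26 to 0.41, adjusted p = 0.709). The log2 ratio of Dnmt1 to Dnmt3a fell by 0.91, from -1.59 ± 0.11 (SD, n = 4) to -2.51 ± 0.30 (SD, n = 5), with no overlap (exact permutation test, adjusted p = 0.0381).

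All 3 Tet genes rose, and 2 of them with the length trend removed, where Tet1 stood at 0.75, Tet3 at 0.52 and Tet2 at 0.27 and not called (adjusted p = 0.209). Tet1 was at 11.5, 6.80, 10.8 and 15.4 in young and at 35.4, 31.7, 32.5, 32.6 and 23.3 normalised counts in old libraries, 2.72-fold higher on 7 to 35 reads a library (adjusted p = 0.000176). Tet3 was at 102 to 119.6 in young and 191 to 342 in old libraries, 2.13-fold higher (adjusted p = 3.69e-06). Neither overlapped. Tet2 was at 148, 81.6, 91.2 and 73.3 in young and at 141, 191, 132, 167 and 186 in old libraries. Young replicate 1 lay among the old ones, and the log2 fold change was 0.76 (adjusted p = 0.00135). The Tet2 to Tet3 ratio moved by -0.33 and did not pass (exact permutation test, adjusted p = 0.421).

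Of the 9 SWI/SNF subunit genes 7 rose (77.8%), 1 fell (11.1%) and 1 did not pass, beside 29.2% higher and 30.5% lower of all genes. The median log2 fold change of the 9 was 0.43. With the length trend removed 4 were higher and 0 lower by limma, and the median was 0.19. Smarcd3 (BAF60C), best known from heart and muscle, was at 21.3, 28.2, 19.6 and 18.1 in young and at 76.6, 75.5, 67.9, 61.6 and 61.5 normalised counts in old libraries. It was 3.08-fold higher without overlap (log2 fold change 1.62 ± 0.19 SE, adjusted p = 9.18e-07). Smarcd1 rose by 0.59 with overlap (adjusted p = 0.0032), and Smarcd2 fell by 0.36 (adjusted p = 0.0241). The Smarcd2 call was lost with the length trend removed (adjusted p = 0.104) and with mitochondrial genes left out (adjusted p = 0.176).

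Both ATPases of the complex rose, Smarca4 also with the length trend removed (0.35, adjusted p = 0.0045) and Smarca2 not (0.19, adjusted p = 0.0874). Smarca4 (BRG1) was at 301, 333, 344 and 309 in young and at 522, 448, 477, 537 and 558 in old libraries, 1.58-fold higher (adjusted p = 1.62e-05). Smarca2 (BRM) was at 963 to 1076 in young and 1245 to 1711 in old libraries, 1.38-fold higher (adjusted p = 0.000484). Their log2 ratio went from 1.66 ± 0.16 (SD, n = 4) to 1.47 ± 0.18 (SD, n = 5), and a change was not detectable (exact permutation test, adjusted p = 0.245).

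The core subunits Smarcb1 (0.43), Smarcc1 (0.41) and Smarcc2 (0.25) rose on the log2 scale, the last at the margin (adjusted p = 0.0489). With the length trend removed Smarcc1 and Smarcc2 were not called (adjusted p = 0.256 and 0.322). Smarce1 did not pass (-0.25, 95% interval -0.65 to 0.15). Smarcc2 lost its call without any one library other than old replicates 1 and 3 (adjusted p = 0.0535 to 0.135). Smarcd2 lost it without young replicate 2, 3 or 4 or old replicate 1 or 4 (adjusted p = 0.0515 to 0.0766), and Smarcb1 without young or old replicate 1 (adjusted p = 0.0511 and 0.0513). Outside SWI/SNF, Smarca5, the ATPase of the ISWI remodellers, was 1.69-fold higher without overlap (adjusted p = 4.5e-05). Smarcal1 (0.42) and Smarcad1 (-0.19) did not pass.

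Of 12 pairs of related genes compared within each library, 6 differed between the ages and 4 of those did not overlap. Sirt1/Sirt3, among these 4, had to separate because both of its genes did, in opposite directions. With the length trend removed 4 pairs were called, while the ratio Dnmt1/Dnmt3a (exact permutation test, adjusted p = 0.0571) and the ratio Ehmt1/Ehmt2 were not. Besides the pairs above, the log2 ratio of Ehmt1 to Ehmt2 rose by 0.17 with overlap (exact permutation test, adjusted p = 0.0381), and turned to -0.044 with the length trend removed. The pairs Smarcc1 and Smarcc2 (0.16), Hdac1 and Hdac2 (-0.34) and Setd1a and Setd1b (0.21) did not pass (exact permutation tests, adjusted p = 0.305, 0.25 and 0.381). Leaving out 1 library raises the smallest p the test can give, and between 0 and 5 pairs were then called. No pair was called without young replicate 2 or 3 or without any one of the 5 old libraries. Without young replicate 1 or 4, at as many splits as without young replicate 2 or 3, 5 pairs were called.

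**Figure D4:**
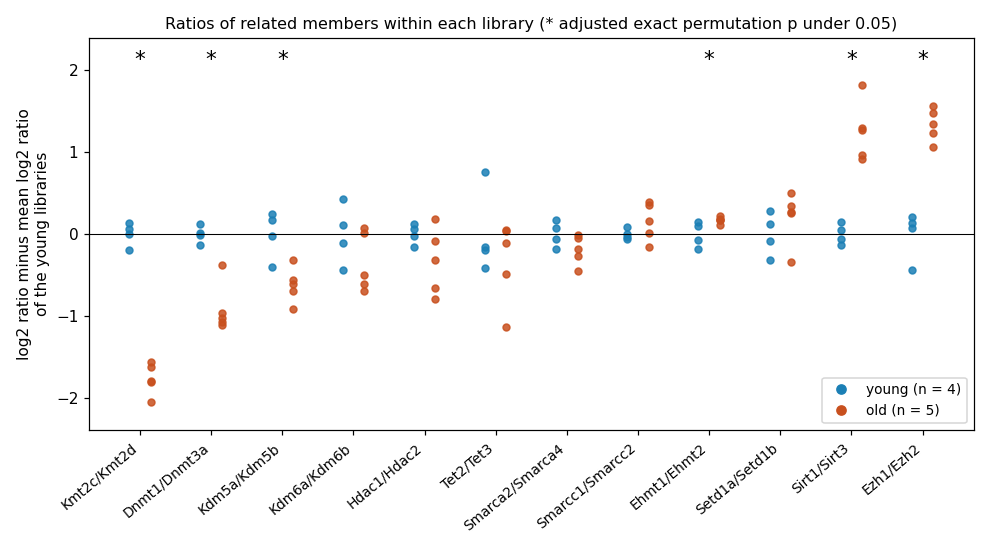
Log2 ratio of the first to the second gene of each of 12 pairs in the 4 young (blue) and 5 old (orange) libraries, less the mean of the young libraries (y axis); asterisks mark an adjusted exact permutation p under 0.05. Kmt2c/Kmt2d lies lowest in old libraries, and Sirt1/Sirt3 and Ezh1/Ezh2 lie highest.

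Long transcripts were higher in old kidneys across all genes, and many members have long transcripts. Spearman's rho between log2 fold change and annotated transcript length was 0.284 over 12431 genes and 0.566 over the 68 members, all from the same 9 libraries. The median length was 4852.5 bases for members and 3077 for all genes. Of the 44 members over 4000 bases 31 rose and 1 fell, and of all 4202 genes of that length 1790 rose and 742 fell. Of the 24 shorter members 5 rose and 8 fell, against 1849 and 3050 of 8229.

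After removal of a length trend from each library, 28 members were higher (41.2%) and 10 lower (14.7%), beside 29.0% and 28.9% of all genes, and their median log2 fold change was 0.25 beside 0.0194. Of the 45 calls 32 were kept and 13 lost. The 6 calls gained were Kmt2c (-0.54), Setd1b (-0.53), Smarcad1 (-0.38), Hdac7 (-0.36), Sirt2 (0.32) and Smarcal1 (0.49). Kmt2c was thus called lower with the length trend removed (adjusted p = 0.00038) and higher with mitochondrial genes left out (0.32, adjusted p = 0.0183). Among calls that were kept, Dnmt3a stood at 0.47, Kdm2a at 0.61, Kdm5b at 0.60, Kdm5c at 0.45, Kdm6a at 0.43, Setd5 at 0.41 and Smarca5 at 0.48. Smarcd3, with a transcript in the shorter group, stood at 1.88, Kmt2d at 1.12, Sirt3 at -0.68 and Sirt4 at -2.55. Rescaling without mitochondrial genes moved the median of all genes tested to 0.14, with 58.5% of all calls upwards against 48.9%, and gave 43 members higher (63.2%) and 7 lower (10.3%), beside 35.4% and 25.1% of all genes. The 7 calls gained were Sirt1, Sirt2, Kmt2c, Kdm1b (0.53, adjusted p = 0.0137), Kdm3a (0.65, adjusted p = 0.0357), Setd7 (0.41, adjusted p = 0.0439) and Smarcal1 (0.56, adjusted p = 0.0224).

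**Figure D5:**
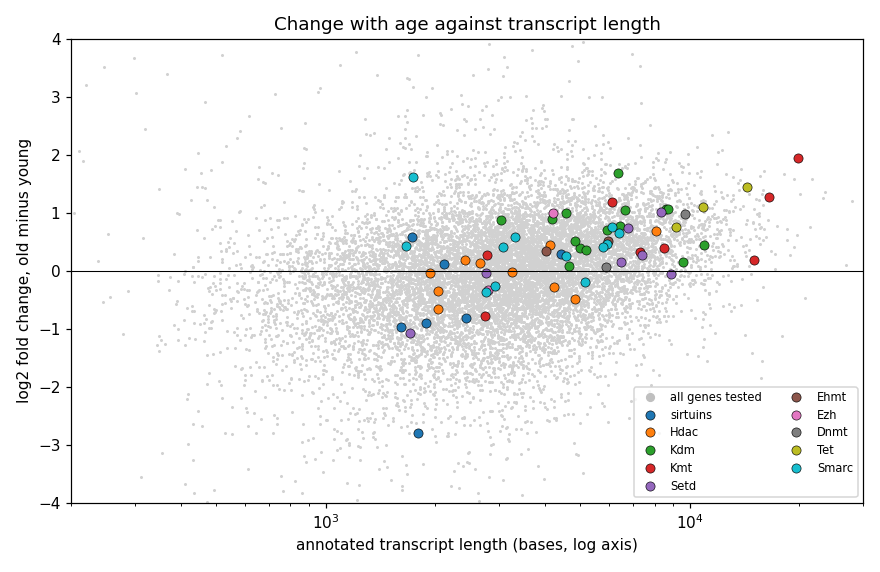
Log2 fold change (old minus young, y axis) against annotated transcript length in bases (x axis, log scale) for 12431 genes (grey) and the 68 members coloured by class; 96 genes lie outside the axes. Each sirtuin other than Sirt1 lies below 4000 bases, and Kmt2d is the longest member and highest on this axis, though below Smarcd3 and Kdm3b once the length trend was removed.

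RefSeq promoters were matched for 56 of the 68 members. The GC box was in 78.6% of the 56 genes and in 38.2% of all 27025 genes with a promoter sequence, which include genes outside the table. The median number of CpG dinucleotides per 300 bases was 26 in members and 7 in all genes. Within the set the GC box was in 25 of 29 members that rose and 7 of 8 that fell, and CCAAT in 6 of 29 and 4 of 8. Of the 19 members not called with a promoter, 12 held the GC box and 11 CCAAT. Of the other motifs, CCAAT was in 37.5% of members and 41.1% of all genes, the E-box in 10.7% and 8.09%, the ETS motif in 3.57% and 4.31%, the NRF1 core in 8.93% and 2.07%, and the cAMP response element in 0 members and 2.03%. The ETS matches were in 2 members called lower, among them Sirt3. None of these shares was tested.

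Partner genes of these enzymes were taken from lists of complex subunits and related enzymes. Of 89 partner genes tested 35 rose (39.3%) and 24 fell (27.0%), beside 29.2% and 30.5% of all genes, and their median log2 fold change was 0.21. With the length trend removed 28 rose (31.5%) and 21 fell (23.6%), shares nearer to the 29.0% and 28.9% of all genes, and the median was 0.07. The 8 partners of PRC2 held 3 rises (37.5%) and 4 falls (50%). Suz12, a core subunit, was at 144 to 173 in young and 431 to 531 normalised counts in old libraries, 3.04-fold higher (adjusted p = 3.57e-10). Eed, the other core subunit, was 1.49-fold lower (adjusted p = 0.0277), and the histone chaperone Rbbp7 1.75-fold lower (adjusted p = 6.9e-06). Suz12 thus rose with Ezh1 while Eed did not.

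Of the 11 partners of the H3K4 methyltransferases tested, 0 rose and 6 fell by limma, with 0 rises also by edgeR, by DESeq2 and at an unadjusted p under 0.05. The 0 rises and 6 falls (54.5%) stand beside 29.2% and 30.5% of all genes. Wdr5, the shared scaffold subunit of these complexes, was at 239, 301, 250.0 and 259 in young and at 73.1, 102, 77.1, 75.6 and 71.1 normalised counts in old libraries. It was 3.28-fold lower without overlap (adjusted p = 5.27e-09), opposite in sign to Kmt2d and Kmt2a. Of 17 further SWI/SNF subunits 5 rose and 5 fell, led by Bicra (1.02) and Dpf2 (-1.15) on the log2 scale. Each count is 29.4% of the 17, near the shares of all genes. Of 18 corepressor subunits that bind Hdac enzymes 9 rose (50%) and 4 fell (22.2%). With the length trend removed 6 rose (33.3%) and 4 fell (22.2%), beside 29.0% and 28.9% of all genes. Chd4, the ATPase of the NuRD complex, was 1.83-fold higher (adjusted p = 2.36e-06). Mta1, a NuRD scaffold, was at 246 to 297 in young and 53.0 to 83.1 in old libraries, 3.80-fold lower (adjusted p = 2.38e-09).

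Acetyltransferases, which act against Hdac enzymes and sirtuins, held 6 rises and 1 fall among 10, with Kat6b at 1.24 and Hat1 at -0.54 on the log2 scale. These counts are 60% and 10%, beside 29.2% and 30.5% of all genes. Of 14 other methyltransferases 8 rose (57.1%) and 2 fell (14.3%), or 6 and 2 with the length trend removed. The 8, and so the 35 partner genes that rose, include Setdb2. It was below 10 normalised counts in every young library and entered the test only through old ones, so that it had to differ. Prdm2 was at 67.9 to 89.4 in young and 275 to 402 normalised counts in old libraries, 4.52-fold higher (adjusted p = 5.06e-10), and Smyd2 was 2.16-fold lower (adjusted p = 0.00996). Of 6 other demethylases 3 rose (50%), led by Jmjd1c at 1.93 on the log2 scale. Of 5 readers and repair enzymes of DNA methylation 2 fell (40%), Uhrf2 by 0.96 on the log2 scale. The calls of Eed and Hat1 were lost with the length trend removed (adjusted p = 0.144 and 0.251) and without mitochondrial genes (adjusted p = 0.097 and 0.130), and held in 13 of 19 and 9 of 19 alternatives.

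Markers of other cells differed between the ages too. The summed level of 4 endothelial markers was 905 to 999 normalised counts in young and 1281 to 1375 in old libraries, with 3 of 4 called higher, and that of 2 B and plasma cell markers was 38.9 to 99.1 against 128 to 1107. For 3 podocyte markers it was 467 to 506 against 352 to 421, and for 4 fibroblast markers 764 to 979.5 against 428 to 865. Cd79a and Cd3g are not analysed here, Cd3e was at 15.3 or below, and the part of these cells in the members' changes was not tested.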

How the data were processed

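For 4 young and 5 old wild-type libraries, kidney RNA was converted, per the labels, from 500 ng of total RNA into 3′ end libraries primed by oligo(dT) and read in the sense orientation; labels and study methods name different kit versions. The authors aligned reads to GRCm39 (TopHat2 2.0.10, Bowtie 1.0.0, SAMtools 0.1.19), took stranded gene counts with HTSeq 0.6.1 and divided each library by its size factor. This deposited signal, here called normalised counts, is therefore proportional to reads within a library. In each library 100% of the values were whole multiples of the smallest positive value (tolerance 0.001 reads), which gave back whole reads. The lowest mean of any gene was 4.49 normalised counts, so rarer genes had been left out before deposition.

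Age groups came from the labels, which give neither sex nor replicate numbers, so libraries were numbered in the order listed. A gene was tested if 4 or more libraries held 10 or more normalised counts. The test was limma 3.58.1 (eBayes with a variance trend, R 4.3.3) on log2(normalised count + 1), without covariates, with Benjamini-Hochberg adjustment over all 12667 genes. Changes of low genes come out too small on this scale. The labels do not state that each library came from a separate mouse, so p-values measure only the spread between these libraries, which may be technical. The detection floor of 3 reads corresponds to 4.72e-05% of the deepest and 6.69e-05% of the shallowest library and covers counting error only, since reads carried no molecular identifiers. Ratios of 12 pairs were tested by exact two-sided permutation over 126 splits. Scripts were tested on simulated data.

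Alternatives were pseudocounts of 0.1 and 5, no filter, a filter on means of 100 or more normalised counts, TMM factors, table totals, mitochondrial genes left out, robust eBayes, edgeR 4.0.16 and DESeq2 1.42.0 on whole reads, a lowess length trend (span 0.3) removed, and each library left out. edgeR called 7649 genes and DESeq2 7532, and each kept 45 of the 45 member calls. Transcript lengths and overlaps came from GENCODE vM21 on GRCm38, matched by symbol for 12831 of 13081 genes (98.1%). Promoter sequences came from RefSeq on GRCm38.p6. Neither is the build the authors used.

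The members, lists and pairs were chosen with earlier results of these data known. Genes were named by rule: all sirtuins, in each other class the 3 called members with the largest rise and the 3 with the largest fall, genes of the pairs, members that crossed the threshold in an alternative, and from each partner list the called gene with the largest rise and the largest fall. One partner gene that met the rule is not reported here. The remaining members are named with their log2 fold change to account for all 68. Eed, Setdb2 and the markers named were chosen after their values were seen.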

Additional observations from a re-analysis of the deposited data

Results flagged for a closer look

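For each member the highest and the lowest library of each age group was compared with the others of its group by Dixon's criterion. Of 136 groups 8 were flagged, and chance at about 1 in 20 gives about 6.8. Old replicate 5 stood above its group for Ehmt1, at 224.896 normalised counts against 189 to 196 in the others, and for Ehmt2, at 321.432 against 249 to 267. The same library was lowest for Tet1, at 23.3383 against 31.7 to 35.4, still above every young library. Old replicate 1 was highest for Setd1a, at 107.262 against 78.8 to 85.8, and lowest for Sirt6, at 8.2509 against 15.2 to 19.1. Old replicate 4 was highest for Hdac11, at 126.862 against 83.1 to 91.2, and old replicate 2 lowest for Kdm3a, at 31.7226 against 55.4 to 65.9. Young replicate 1 was highest for Kmt5b, at 70.4301 against 66.7 to 67.0, a group whose whole spread was small beside the difference to the old libraries.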

How the results depend on the processing

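The member calls kept their side of the threshold in most alternatives: edgeR, DESeq2, robust eBayes, both pseudocounts and no filter kept 45 of 45, TMM factors 44 (Smarcc2 lost), table totals 42 (Kdm2b, Kmt2b and Smarcc2 lost), leaving out mitochondrial genes 43 and removing the length trend 32. Requiring a mean of at least 100 normalised counts tests fewer genes and left 4101 called (2040 higher, 2061 lower) and 4 members lower. With 1 library left out, 6756 to 7561 genes were called (3362 to 3677 higher, 3388 to 3884 lower), 39 to 46 members (32 to 36 higher, 6 to 10 lower) and 0 to 5 pairs. Fewer splits raise the smallest p of the pair test. Yet 5 pairs were called without young replicate 1 or 4 and 0 without young replicate 2 or 3, at the same number of splits. Log2 fold changes turned sign with the length trend removed for Dnmt1 (-0.19), Hdac2 (0.0347), Hdac8 (0.20), Kdm4a (-0.0506), Kdm5a (-0.13), Kdm7a (-0.36), Kmt2b (-0.0536), Kmt2c (-0.54), Kmt2e (-0.0566), Setd1a (-0.17), Setd3 (0.0692), Setd7 (-0.11) and the ratio of Ehmt1 to Ehmt2 (-0.044). They turned without mitochondrial genes for Hdac2 (0.13), Hdac8 (0.11), Setd1b (0.0823) and Setd3 (0.10), and for Hdac8 with edgeR (0.0600) and DESeq2 (0.0570). With 1 library left out the lowest and highest values were -0.0040 and 0.14 for Dnmt1, -0.0657 and 0.0251 for Hdac2, -0.20 and 0.17 for Hdac8 and -0.0907 and 0.0039 for Setd3. Of these, Kdm5a, Kmt2b and Kmt2e were called in the main test, Kmt2c was called lower after the sign turned and higher without mitochondrial genes (0.32), and the cause was not tested. No paired analysis was possible because the labels give no replicate numbers shared between the ages. The 4 or 5 libraries a group and the reads behind low members (2 to 8 for Sirt4 in old libraries) limit the precision.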
